A study of Homo sapiens with 38 samples.

Results

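BHLHE40 and 9 genes of the circadian clock were examined for where BHLHE40, GATA3 and the histone mark H3K27ac lay around them in stimulated Jurkat cells, a human T-cell leukaemia line. The 10 genes (BHLHE40, BHLHE41, PER1, PER2, CRY1, CRY2, NR1D1, NR1D2, DBP and CLOCK, of 20050 protein-coding gene records) were chosen by name. Earlier results of these data were known when they were chosen. Every line of the authors' 3 peak lists that touched a gene record or the 50 kb on either side of it was taken. The windows held 58 of 26205 BHLHE40 regions, 41 of 29009 GATA3 regions and 122 of 113570 H3K27ac regions. A region is 1 line of a list, its summit is the base at which the peak was highest, and its signal value is the authors' own enrichment, compared here only within 1 list.

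The series used chromatin immunoprecipitation with sequencing (ChIP-seq), in which fixed DNA is pulled down with an antibody against a protein or histone mark. Its 38 samples formed 19 groups of 2, and 3 groups are used here: unedited Jurkat cells carrying the control lentivirus Ctrl_LV, with antibodies against BHLHE40, GATA3 or H3K27ac. The stimulus was 50 ng/ml of the phorbol ester PMA together with 500 ng/ml of the calcium ionophore ionomycin. Its duration is 5 hours in the sample characteristics and 2 hours in the treatment protocol. The cells therefore carried a vector and were activated, and no resting, over-expressing or base-edited group was analysed here. Each group of 2 samples stands as 1 list, so no value has a spread between replicates, no test could be made and the depth is unknown.

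The circadian clock is a transcriptional loop. CLOCK and its partner BMAL1 bind E-box sequences and activate the PER and CRY genes, whose proteins then block that activation, while NR1D1 and NR1D2 (REV-ERB alpha and beta) repress BMAL1 and DBP activates genes through another element, the D-box. BHLHE40 and BHLHE41 (DEC1 and DEC2) are repressors that bind the same E-boxes as CLOCK and BMAL1, above all the palindrome CACGTG. In T cells BHLHE40 is known as an activation-induced regulator of cytokine genes. GATA3 is a T-cell lineage factor that binds GATA sequences, and H3K27ac marks active promoters and enhancers.

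The sequences below show, among promoter matches to 4 searched E-box forms, the one nearest to the BHLHE40 summit for each member. A second one is shown for NR1D2. Other E-box forms and bases outside the promoters were not searched, so a nearer E-box is not excluded. The nearest BHLHE40 summit lay outside the searched bases at BHLHE40, BHLHE41, PER1, PER2 and DBP. So did the summit of the stronger start region at CLOCK. The sequences are given because the BHLHE40 regions are read against them. All 10 genes had an entry in the RefSeq promoter table (GRCh38.p14), which gives 250 bases before and 50 after a start. CRY2, NR1D2 and CLOCK had 2 starts each. The E-boxes shown for PER2, CRY1 and NR1D1 match a form that was added after the values were seen. PER2 and CRY1 had none of the other 3 forms. The E-box is in capitals and the strand is that of the gene.
BHLHE40 (chr3:4979187-4979209, plus): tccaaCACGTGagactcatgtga
BHLHE41 (chr12:26125035-26125064, minus): tggccggcgacgCGCGTGccctgtggccaa
PER1 (chr17:8152560-8152589, minus): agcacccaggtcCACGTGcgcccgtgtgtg
PER2 (chr2:238288790-238288819, minus): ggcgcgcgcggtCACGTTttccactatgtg
CRY1 (chr12:107093621-107093650, minus): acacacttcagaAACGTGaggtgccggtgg
CRY2 (chr11:45847264-45847293, plus): cgggcggacccaCACATGgtaggaacgtga
NR1D1 (chr17:40100740-40100769, minus): gcgcaagagctcAACGTGccggctgttgga
NR1D2 (chr3:23946004-23946033, plus): gggccgcagggaCACGTGggggcgggggcg
NR1D2 (chr3:23945954-23945983, plus): ggcgggcggggaCACGTGaggccgctcggc
DBP (chr19:48637547-48637576, minus): gccggagggaggCACGCGgctgggttgcat
CLOCK (chr4:55546024-55546053, minus): cggcgcccggccCGCGTGccgcagtccgca

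A BHLHE40 region covered a start of 9 of the 10 genes, all but its paralogue BHLHE41. The same held for 45.8% of the 15843 protein-coding genes in the promoter table. A GATA3 region covered a start of 4 members (CRY1, CRY2, NR1D2 and CLOCK), against 19.2% of genes. H3K27ac covered a start of 7 members, against 41.7% of genes, and the 3 without were BHLHE40, BHLHE41 and DBP. This way of counting was chosen after the values were seen.

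By summits within 1 kb of a start, 8 members had a BHLHE40 region (48.0% of genes), 6 had a GATA3 region (22.1%), 9 had an H3K27ac region (56.9%) and 6 had all 3 (20.2%). The 6 were BHLHE40, PER2, CRY1, CRY2, NR1D2 and CLOCK. With 10 genes and no replicate lists these counts are descriptions and were not tested.

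**Figure D1:**
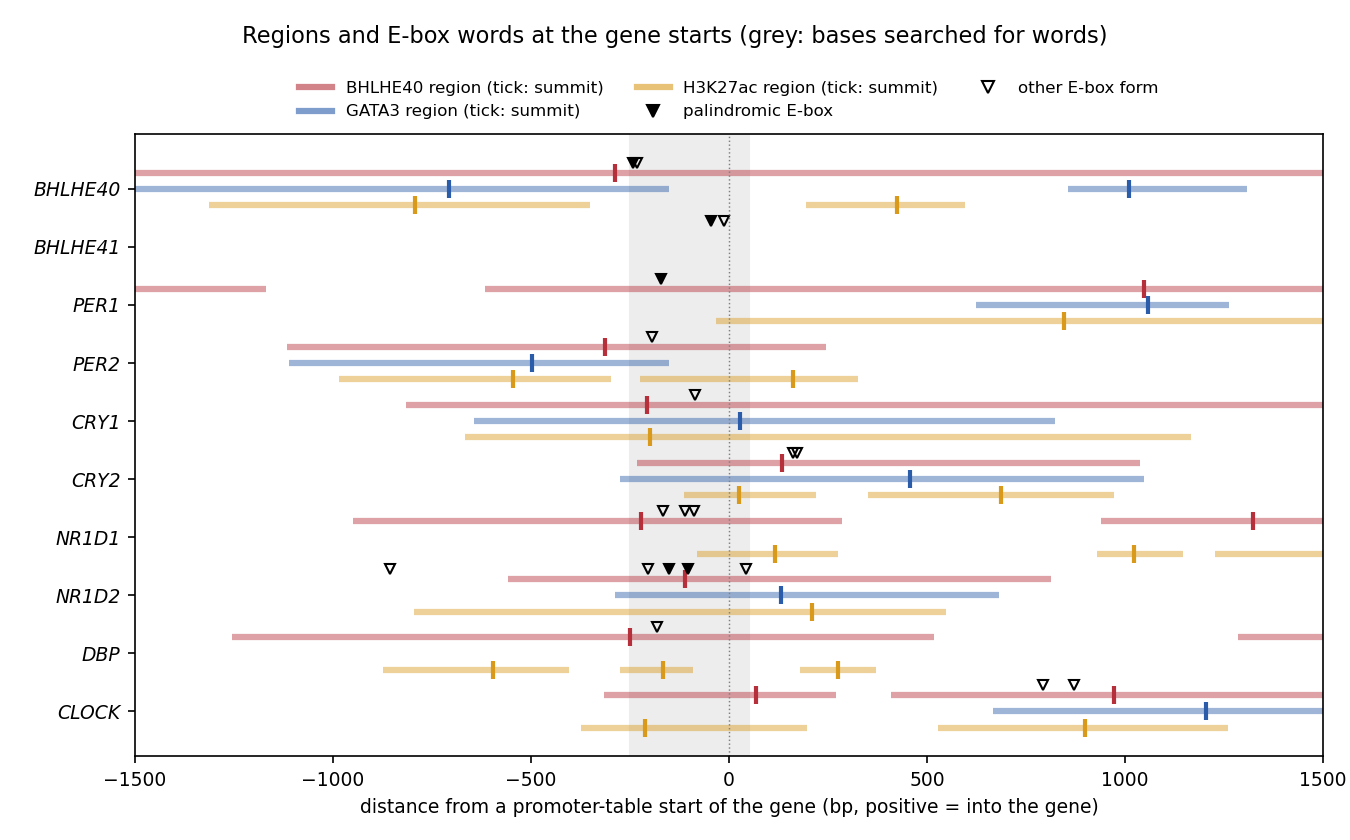
Regions of the 3 lists around a start of each gene, drawn in the direction of transcription (x axis, distance in bp; bars, regions; ticks, summits; triangles, the 4 searched E-box forms in the promoter table). For CRY2, NR1D2 and CLOCK the zero is 1 of 2 starts, so triangles outside the grey band belong to the other. A BHLHE40 bar crosses the start in every row except BHLHE41, which has no bar at all.

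The counts at gene ends depended on where a gene record stops. A BHLHE40 summit lay within 1 kb of either end of the record in 8 members (44.3% of all protein-coding records), a GATA3 summit in 6 (20.7%), an H3K27ac summit in 7 (54.7%), and all 3 in 5 (18.4%). PER2 missed this count because its record, positions 238244044 to 238300065 of chromosome 2, runs beyond the start in the promoter table. Its only BHLHE40 region covered that start inside the record. PER1 entered the counts of both factors through its far end and that of H3K27ac through its start, 846 bp away, so its place among the 5 combines opposite ends. CLOCK did likewise, with GATA3 979 bp beyond its far end, inside TMEM165, and BHLHE40 at its start. At the far end of PER1 a BHLHE40 summit (signal value 30.1) and a GATA3 summit (20.8) lay 18 bp apart, 903 and 921 bp beyond the record and within 1 kb of the ends of the transfer RNA genes TRS-CGA1-1 and TRT-AGT5-1. BHLHE41 had no summit of any list at its ends, as was the case for 42.6% of all protein-coding records.

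The period genes encode the inhibitors that accumulate in each cycle. At PER1 (chromosome 17, 8140472 to 8152404) the BHLHE40 region at the start ran from 8150155 to 8153021 and had rank 548 of 26205 by its signal value of 43.1. It covered the start, but its summit lay 1047 bp inside the gene, 11 bp from a GATA3 summit of signal value 6.38, and inside an H3K27ac region (6.16). The CACGTG of the PER1 promoter, 173 bases before the start, lay in the same BHLHE40 region but 1217.5 bp from its summit. The bases at that summit lie outside the promoter table and were not searched for words. The strongest BHLHE40 region of the PER1 window lay upstream, 4071 bp before the start (8155384 to 8157403, signal value 49.7, rank 382). It overlapped GATA3 at a signal value of only 5.06, near the bottom of the GATA3 list (rank 28220 of 29009).

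At PER2 the single BHLHE40 region of the window spanned 238288365 to 238289725, with a signal value of 29.9 (rank 1350) and a summit 312 bp before the start. GATA3 was listed there at 10.9, with its summit 186 bp from that of BHLHE40. The H3K27ac region just upstream, 238288908 to 238289596, had a signal value of 15.1 (rank 525 of 113570), the highest at a start among the 10 genes. PER1 and PER2 thus both carried strong BHLHE40 regions, in PER1 as 1 of 14 regions of a crowded window and in PER2 as the only one.

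The cryptochrome genes encode the partners of the PER proteins in repression, and both genes had a start region among the upper ranks of the BHLHE40 list. CRY1 (chromosome 12, 106991364 to 107093549) had a BHLHE40 region at 107091927 to 107094364 with a signal value of 28.9 (rank 1441) and a summit 208 bp before the start. CRY2 (chromosome 11, 45847118 to 45883244) had one at 45846886 to 45848157 with a signal value of 31.1 (rank 1242) and a summit 133 bp after the first start. GATA3 was listed at both, at 7.90 (rank 22160 of 29009) and 11.2 (rank 14600). H3K27ac reached 12.4 at CRY1 and 7.56 at CRY2.

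Among the nuclear receptor repressors, NR1D2 and NR1D1 were at opposite ends of the BHLHE40 values at starts. NR1D2 (chromosome 3, 23945286 to 23980617) had the highest BHLHE40 signal value at a start among the members, 45.4 (rank 476, region 23945563 to 23946934). Its summit lay 8.5 bp from the centre of one CACGTG and 41.5 bp from the centre of another. The summit lay 111 bp before the second start of NR1D2, in a stretch that the record of NKIRAS1 also covers. NKIRAS1 and LOC124909354 each have a record end within 1 kb of it. GATA3 was listed there at 7.71 and H3K27ac at 7.82. NR1D1 (chromosome 17, 40092793 to 40100589) had the lowest, 6.15 (rank 21435, region 40100304 to 40101539). Higher BHLHE40 values at NR1D1 lay inside the gene, 13.6 at 4418 bp and 12.5 at 1323 bp after the start, and at 21.9 upstream, 7756 bp before it. The H3K27ac region at the NR1D1 start was weak as well, at 2.96 (rank 80160), and did not hold the BHLHE40 summit. The only GATA3 region of the window lay 40005 bp upstream, inside CASC3.

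DBP is an output factor of the loop and CLOCK its activator. DBP (chromosome 19, 48630030 to 48637379) had a BHLHE40 region at its start with a signal value of 23.0 (rank 2342, 48636861 to 48638633) and a second of 20.6 inside the gene, 2769 bp after the start. Another, of 22.3, lay 9215 bp before the start in SEC1P. None of the 3 overlapped GATA3. CA11 and SEC1P each have a record end within 1 kb of the BHLHE40 summit at the DBP start. Of 3 H3K27ac regions at the DBP start the strongest had a signal value of 10.5, with its summit inside the record of CA11. The others had 2.13 and 2.74, and none of the 3 covered the start itself. CLOCK (chromosome 4, 55427903 to 55546909) had 2 BHLHE40 regions, of 10.2 and 7.09, at its 2 starts, above and below the median of 9.35 of the whole list. Its GATA3 region there, at 11.7, overlapped the second of them, as did an H3K27ac region of 6.86. A further shared place 3163 bp before the CLOCK start had a BHLHE40 signal value of 14.3 and a GATA3 value of 16.9, with summits 33 bp apart and no H3K27ac region.

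At its own gene (chromosome 3, 4979437 to 4985323), BHLHE40 had a signal value of 38.5 (rank 726) with the summit 287 bp before the start. The record of BHLHE40-AS1 also holds this summit and has an end within 1 kb of it. That summit lay between 2 H3K27ac regions, at 4978123 to 4979085 (8.57) and 4979631 to 4980033 (2.61), and in neither. GATA3 was listed upstream at 5.07 and, 1009 bp after the start, just past the 1 kb limit, at 10.5. The 250 bases before the start, chr3:4979187-4979436 on the plus strand, are shown because 2 E-box forms, in capitals, lie together at the end nearest to the summit.
BHLHE40 upstream: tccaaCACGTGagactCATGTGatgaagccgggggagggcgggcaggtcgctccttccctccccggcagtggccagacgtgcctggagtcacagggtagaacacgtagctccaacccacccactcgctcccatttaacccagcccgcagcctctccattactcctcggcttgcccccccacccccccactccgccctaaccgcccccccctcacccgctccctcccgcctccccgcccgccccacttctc
The centre of the CACGTG lay 44.5 bp and that of the CATGTG 55.5 bp from the summit. BHLHE41 (chromosome 12, 26120030 to 26125037) has a CACGTG in its promoter too, 48 bases before the start, yet the only BHLHE40 region of its window lay beyond the gene, 10448 bp downstream of the start, at a signal value of 8.75. It overlapped neither GATA3 nor H3K27ac. None of the 5 H3K27ac regions of the BHLHE41 window exceeded a signal value of 3.82.

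Set in order, the BHLHE40 signal values at the starts were 45.4 at NR1D2, 38.5 at BHLHE40, 31.1 at CRY2, 29.9 at PER2, 28.9 at CRY1, 23.0 at DBP, 10.2 at CLOCK and 6.15 at NR1D1, with none at PER1 by the 1 kb rule and none at BHLHE41. The first 6 belonged to the top 10% of the whole BHLHE40 list, a count chosen after the values were seen, against 4.53% of genes with such a start region. No spread between replicates is known, so neighbours such as CRY2, PER2 and CRY1 cannot be ordered. The median over all 7604 genes with a BHLHE40 start region was 10.8. For GATA3 no member had a top 10% start region, against 1.06% of genes, and the 6 values lay between 5.07 and 11.7 around a median of 8.98 over 3497 genes. For H3K27ac 8 members had one, against 39.5% of genes.

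**Figure D2:**
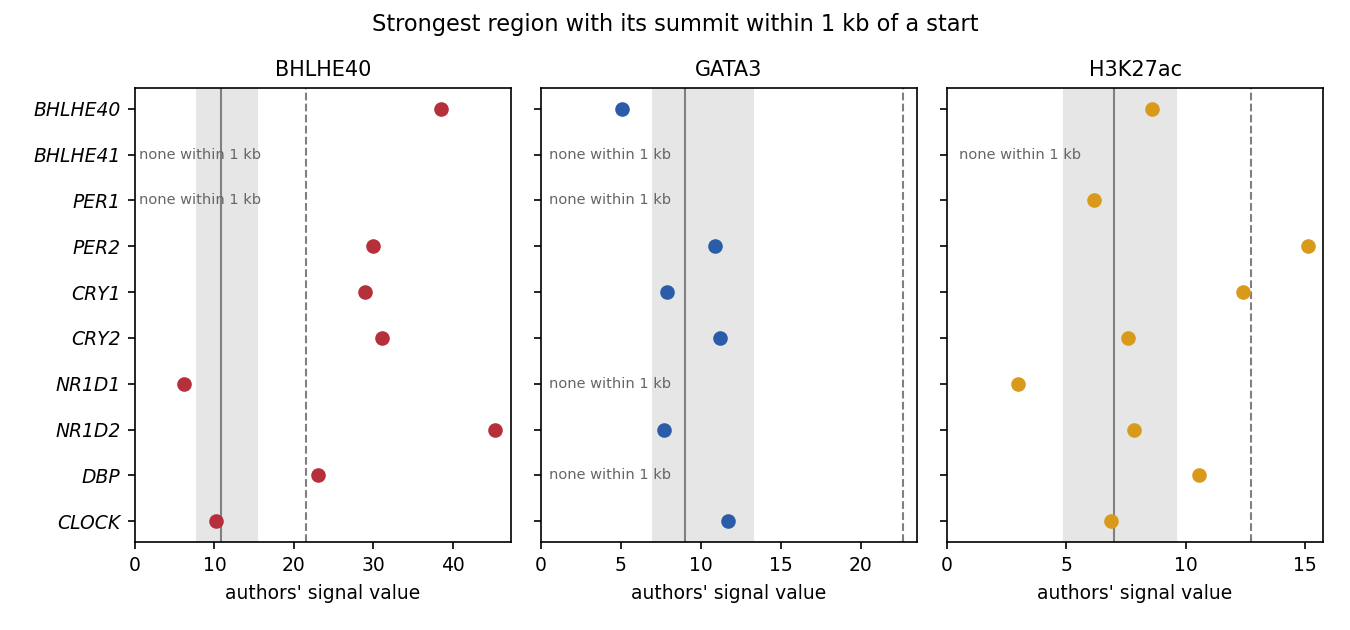
Signal value (x axis, the authors' enrichment, on a separate scale for each list) of the strongest region with its summit within 1 kb of a start, 1 point a gene. Grey bands show the middle 50% of all protein-coding genes with such a region, solid lines their median and dashed lines their 90th percentile. In the BHLHE40 panel 6 points lie beyond the dashed line, and in the GATA3 panel none does.

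By the 1 kb rule, BHLHE40 and GATA3 regions overlapped at 6 member starts with their summits apart. Of the 9 BHLHE40 regions at member starts, 6 overlapped a GATA3 region (39.3% of the 8022 BHLHE40 regions at any start) and all 9 overlapped H3K27ac (92.6%). The distance between the BHLHE40 and GATA3 summits was 186 bp at PER2, 234 bp at CLOCK, 236 bp at CRY1, 242 bp at NR1D2, 323 bp at CRY2 and 421 bp at BHLHE40. The GATA3 summit was the upstream one at PER2 and BHLHE40 and the downstream one at the other 4. Over the 3150 BHLHE40 regions at any start that overlapped GATA3, the median distance was 93 bp and the middle 50% ran from 33 to 236 bp. PER1 is not among the 6 because its summit lay 1047 bp from the start. The BHLHE40 region that covered its start had its summit 11 bp from that of GATA3.

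The 22 BHLHE40 regions of the windows with GATA3 whose summit was not within 1 kb of the member's own start had a median distance of 45 bp, from 5 to 532 bp, and 13 of them lay within 50 bp. They include the PER1 region and regions at the starts of neighbours, such as ALOXE3 (72 bp), RPL15 (157 bp), SPHK2 (297 bp) and PEX16 (318 bp). Over the 10727 regions of the whole list that overlapped GATA3 with no start of the promoter table within 1 kb the median was 27 bp, and this set is not the same in kind as the 22. At BHLHE40 there were 4 shared places downstream of the gene, where the summits lay 32 to 51 bp apart. Their GATA3 values ran from 13.1 to 21.7 and their BHLHE40 values from 5.25 to 10.8, and 1 of the 4 overlapped H3K27ac.

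Over the whole windows, 28 of 58 BHLHE40 regions overlapped GATA3 (48.3%, 95% Wilson interval 35.9% to 60.8%), close to 53.0% of the whole list. Seen from GATA3 the share was larger: 32 of 41 regions overlapped BHLHE40 (78.0%, interval 63.3% to 88.0%), against 48.7% of the whole list. PER1 alone gave 11 of these 32. H3K27ac overlapped 43 of the 58 BHLHE40 regions (74.1%, interval 61.6% to 83.7%) and 24 of the 41 GATA3 regions (58.5%, interval 43.4% to 72.2%), against 76.4% and 49.1% of the lists. The intervals cover counting only, and regions of 1 window are not independent.

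The windows differed widely in how many regions they held. BHLHE40 regions numbered 14 at PER1, 10 at NR1D1, 8 at BHLHE40, 7 at DBP, 5 at CRY2 and CLOCK, 4 at CRY1, 3 at NR1D2 and 1 at PER2 and BHLHE41, against a median of 2 over all protein-coding genes. GATA3 regions numbered 11 at PER1 and 9 at BHLHE40 but 1 at NR1D1 and BHLHE41, against a median of 2. H3K27ac regions ran from 4 at NR1D2 to 19 at PER1 and NR1D1, against a median of 8. Other protein-coding records in the window numbered 5 at PER1, 4 at NR1D1, 7 at DBP, 6 at CRY2 and 0 at BHLHE40, and their part in these counts was not tested. Of the 58 BHLHE40 regions, 11 had their summit in the member's own record and 14 lay outside it within 1 kb of the start of another gene.

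**Figure D3:**
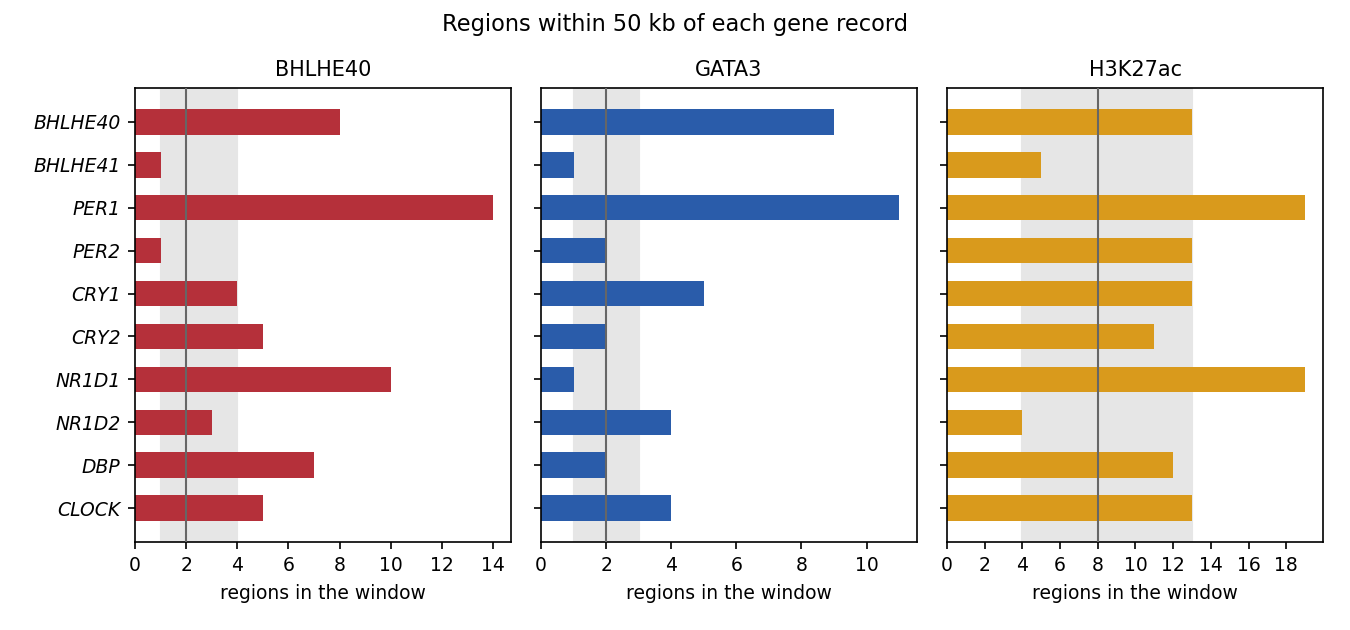
Number of regions of each list (x axis) in the window of each gene, its record plus 50 kb on both sides. Grey bands show the middle 50% and lines the median of 20050 protein-coding genes. PER1 has the longest bar for both factors, and NR1D1 has 10 BHLHE40 regions beside 1 GATA3 region.

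**Figure D4:**
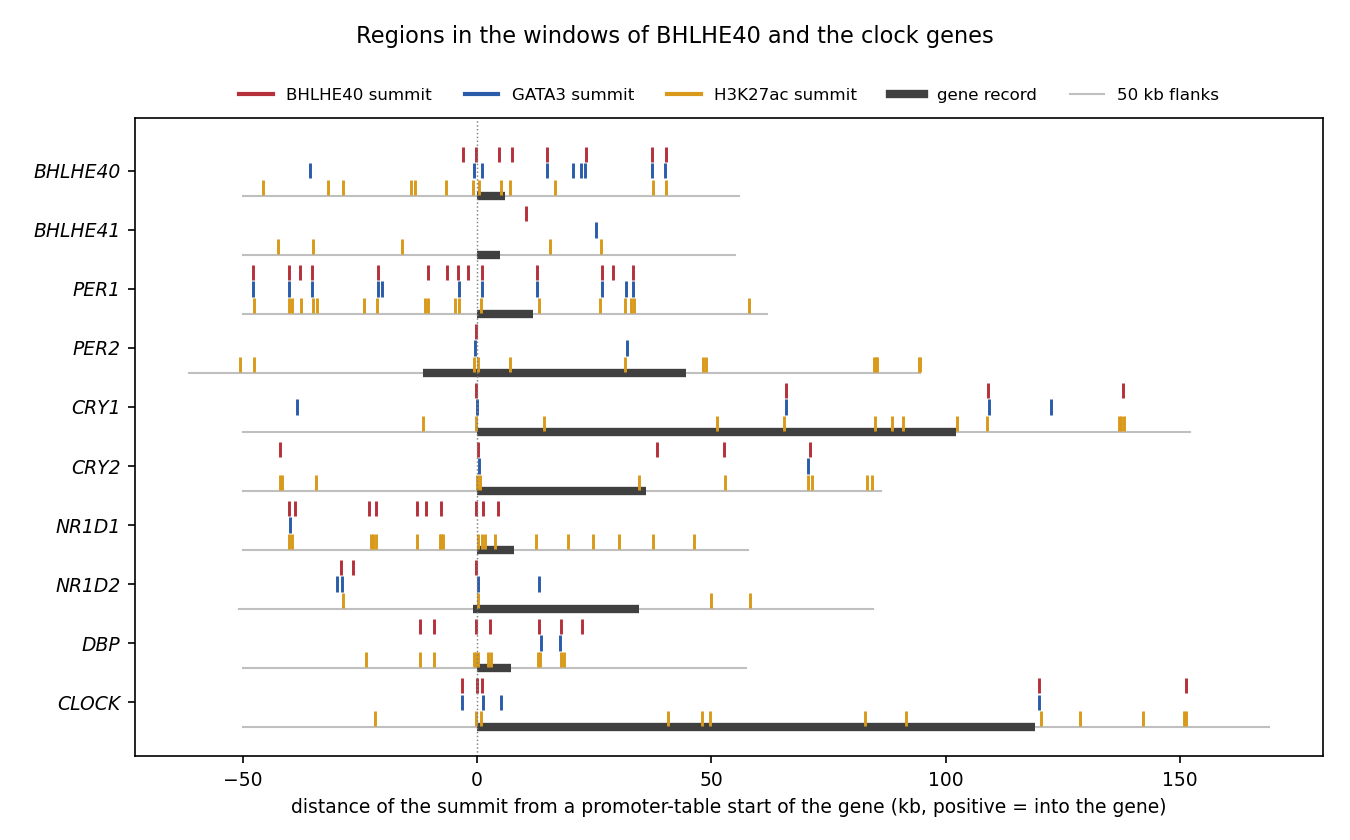
Summits of the 3 lists in the 10 windows, placed by distance from a start of the gene (x axis, kb, in the direction of transcription), with the gene record as a thick line and the flanks as a thin line. The BHLHE40 window shows paired BHLHE40 and GATA3 summits downstream of the gene, and the BHLHE41 window holds 1 BHLHE40, 1 GATA3 and 5 H3K27ac summits.

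The E-box words were counted in the 300 bases of each promoter, on both strands. CACGTG was found in 4 of the 10 genes (BHLHE40, BHLHE41, PER1 and NR1D2), against 10.9% of genes. CACGCG was found in 5 (BHLHE41, NR1D1, NR1D2, DBP and CLOCK), against 18.1%, and CATGTG in 4 (BHLHE40, CRY2, NR1D1 and NR1D2), against 11.5%. At least 1 of the 3 was found in 8 members and in 34.6% of genes. The form CACGTT, added after the values were seen, was found in PER2, CRY1, CRY2, NR1D1 and CLOCK, against 7.08% of genes. With it each member had at least 1 of the 4 forms, against 38.7% of genes. That full count rests on the late choice, since CACGTT was the only form in PER2 and CRY1, and it is no sign of enrichment. No matches of different words overlapped in the 10 genes, and a match is a description, not a bound site. Over all promoters, CACGTG was in 13.6% of the 5646 that held a BHLHE40 summit and in 6.53% of the other 16553. CACGCG was in 21.4% and 11.8% and CACGTT in 6.77% and 4.97%, whereas CATGTG went the other way, with 5.97% and 9.94%. A difference of this kind was not limited to E-boxes, since TGACGT was in 15.0% and 6.89%.

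The other words searched were each found in fewer members than any of the E-box forms, and these counts were not tested. The GATA factor word AGATAA was found in none of the 10 (10.2% of genes). TGACGT, part of a cyclic AMP response element, was in NR1D2 only (11.7%), as was the D-box form TTATGTAA (0.922%). AGGTCA, a nuclear receptor word, was in PER1 and CRY2 (15.2%).

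The rest of the clock was taken from a list of 30 other genes, all found in the gene table. A BHLHE40 summit lay within 1 kb of a record end in 13, a GATA3 summit in 8 and an H3K27ac summit in 21. Over all protein-coding records the shares were 44.3%, 20.7% and 54.7%. The BHLHE40 count is near its share and is not a result about these genes, and no count was tested. The highest BHLHE40 values were at BTRC (42.4) and FBXW11 (15.1), which encode ubiquitin ligase subunits that act on PER proteins, and at SFPQ (24.9), an RNA-binding protein. NOCT (13.9), a rhythmically expressed phosphatase, the kinase gene CSNK1D (13.2), TIPIN (12.6) and PER3 (7.84) were also among the 8 highest. At BTRC the GATA3 value was 72.3, above every GATA3 value in the 10 windows. The 17 genes without a BHLHE40 summit at an end included BMAL1, NPAS2, RORA, RORB, TEF, HLF, NFIL3, CIART, CSNK1E, FBXL21P, GSK3B, SIK1, PRKAA2, NONO, DDX5 and WDR5. BMAL1 and TEF each had 1 within 1 kb of a start inside their record.

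The cell label was checked on H3K27ac at gene ends, where 54.7% of all protein-coding records had a summit. H3K27ac was listed at 9 of 13 T-cell genes, with signal values from 3.07 to 8.46, and not at CD3G, LCK, TCF7 and GATA3. Of these, LCK, TCF7 and GATA3 had a summit within 1 kb of a start, whereas CD3G had no summit of any list at an end or start. Of 17 genes of other cell types H3K27ac was listed at CD79A, COL1A1 and APOA1, with values from 2.16 to 4.58. The T-cell count was not far above the share over all records, and neither count was tested.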

How the data were processed

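The deposited lists follow the narrowPeak layout, 1 list for each group of 2 samples. The submitters' processing notes name hg38, bcl2fastq 2.20 and MACS2. The aligner, the filters and the use of inputs are not given in the sources used here. Per the names and values of the deposited lists, the factor lists keep peaks at an irreproducible discovery rate (IDR) of 0.05, with a score from 540 to 1000 that falls as the IDR rises, and the H3K27ac list pools both samples. Signal values and −log10 q values are the authors'. What the signal is relative to is not given. An IDR filter keeps only regions that repeat, whereas the pooled list also holds weak ones.

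Coordinates are 1-based. Gene records and promoters came from RefSeq GRCh38.p14. A region belonged to a window when it overlapped it by at least 1 bp, and lay at an end or start when its summit was within 1 kb. All members were named. Of the other clock genes, the 8 with the highest BHLHE40 value at an end and all those without a region were to be named; some of these are not reported here. The members and lists were chosen with earlier results of these data known. The overlap function was tested on simulated data. The work was done in Python 3.11.15 with pandas 2.3.3 and numpy 2.4.6, intervals with scipy 1.17.1 and figures with matplotlib 3.10.9. Alternatives changed the flank, the distance, the overlap rule, the score and the q threshold.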

Additional observations from a re-analysis of the deposited data

How the results depend on the processing

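Of 57 alternative values for 21 results, 43 stayed within 1.5 times the count or within the interval of the share. The 20 kb flank lowered the GATA3 regions to 25 and the H3K27ac regions to 71, and 61 H3K27ac regions had a −log10 q of 5 or more. Summits within 500 bp of a gene end left 2 members with GATA3 and 2 with all 3 lists. Shared regions with summits within 100 bp made up 29.3% of BHLHE40 and 41.5% of GATA3 regions. BHLHE40 summits lay inside an H3K27ac region in 51.7%. In the 100 bases nearest the start, CACGTG was in 1 member, CACGCG in 2, CATGTG in 1, AGGTCA in 0 and TTATGTAA in 0. The form CACGTT, which is not among the 57 values, was there in 0 members, against 5 in the full promoters. At a score of at least 830, 5 of the other clock genes had GATA3 at an end. These stricter limits keep fewer regions or bases by construction. No paired analysis was possible because only 1 list was used per pair of samples, and leaving out a replicate was not run for that reason. The depth is unknown, so whether a missing region reflects too few reads cannot be told.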

Other observations

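Several of the strongest regions in the windows belonged to neighbours of the clock genes. In the PER1 window the highest GATA3 value, 51.9 (rank 1371 of 29009), and the highest H3K27ac value, 23.2 (rank 78 of 113570), lay 21039 and 21304 bp upstream of PER1 inside TMEM107, within 1 kb of the small nucleolar RNA gene SNORD118. The BHLHE40 value there was 41.6 and the summits of the factors lay 9 bp apart. A second shared place, with summits 5 bp apart, lay in the transfer RNA gene TRI-AAT5-5, at 13.3 for BHLHE40 and 4.91 for GATA3. At the end of the PER1 window a GATA3 region of 39.2 overlapped a BHLHE40 region of 5.78.

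Ribosomal protein genes stood beside both NR1D2 and DBP. At RPL15, 28204 bp upstream of NR1D2, BHLHE40 reached 17.0 and GATA3 28.9, above the 7.71 of GATA3 at NR1D2 itself. Between RPL18 and SPHK2, near DBP, BHLHE40 reached 17.6 and GATA3 25.9. In the NR1D1 window the BHLHE40 regions next in strength after that of the upstream flank lay at the start of MSL1 (17.6) and in NR1D1 itself (13.6), followed by the shared region in CASC3 (13.2), where the GATA3 value was 10.3.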
